A study of Mus musculus with 7 samples.

Results

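The core circadian clock was examined in the adipocyte RNA-Seq through 10 genes, Arntl, Clock, Npas2, Per1, Per2, Per3, Cry1, Cry2, Nr1d1 and Dbp. They were taken by gene symbol from the 57010 identifiers of the count table, and all 10 were among the 17039 genes with enough counts to be tested. RNA came from mature white adipocytes freed by collagenase from perigonadal fat of male mice on Teklad LM-485 chow, 20 weeks of age by the labels. There were 3 FFA2 fl/fl mice, which carry the floxed Ffar2 alleles without the Cre, and 4 Adipoq-F2-KO mice, which carry the same floxed alleles and a Cre recombinase driven by the adiponectin promoter. The labels have littermates of both genotypes housed together under a regular light and dark cycle. The study's methods give shared housing from birth to an age short of these 20 weeks, and no group with Cre alone was analysed here. The labels and the study's methods, as used here, do not give the hour at which each mouse was killed. The part of collection time in any value below was not tested, and a difference in collection time between the genotypes cannot be told apart from genotype.

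The mammalian clock is a feedback loop of transcription. CLOCK or NPAS2 pairs with BMAL1, the product of Arntl, and the pair binds E-boxes and drives the Per, Cry, Nr1d1 and Dbp genes. PER and CRY proteins then enter the nucleus and repress the pair that made them. The nuclear receptor REV-ERB alpha, the product of Nr1d1, represses Arntl and Npas2 through ROR elements, and DBP carries the rhythm to other genes through D-boxes. In mouse peripheral tissues, fat included, transcripts of Nr1d1 and Dbp are known to peak in the light phase, those of Per genes around its end, and those of Arntl and Npas2 near the end of the dark phase, so a single collection samples each gene at its own phase.

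Short stretches of 6 promoters are shown because they hold letters that match the kinds of element through which the loop is known to run. The windows covered 250 bases before to 50 bases after the annotated start and came from RefSeq on GRCm38.p6, and 9 of the 10 genes had a window, the exception being Per2. The motifs searched on both strands were the E-box CACGTG, the E-box variant CACGTT, the D-box TTATGTAA and the ROR element TAGGTCA. Capitals mark the match, and AACGTG is CACGTT read on the other strand. All sequences run 5′ to 3′ on the strand of the gene.
Per1, chr11:69098763-69098808, plus strand, E-box at position -166: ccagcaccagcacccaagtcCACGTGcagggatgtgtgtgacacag
Cry1, chr10:85185089-85185153, minus strand, E-box variant at position -79 and E-box at -60: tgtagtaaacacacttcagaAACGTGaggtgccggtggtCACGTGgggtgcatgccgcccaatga
Cry2, chr2:92434210-92434255, minus strand, E-box variant at position -166: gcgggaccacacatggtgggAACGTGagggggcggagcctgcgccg
Nr1d1, chr11:98775380-98775425, minus strand, E-box variant at position -28: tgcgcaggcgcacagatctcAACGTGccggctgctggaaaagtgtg
Per3, chr4:151044796-151044890, minus strand, D-boxes at positions -205 and -158: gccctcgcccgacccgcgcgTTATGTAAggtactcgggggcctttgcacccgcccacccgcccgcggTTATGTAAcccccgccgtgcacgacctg
Arntl, chr7:113207531-113207557, plus strand, ROR element at position 31: aggcagaaagTAGGTCAgggacggagg

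Among all 32851 windows of this length, 7.15% held CACGTG, 4.68% CACGTT, 0.938% TTATGTAA and 2.61% TAGGTCA. The Arntl match was in 1 of its 2 windows, since that gene has more than 1 annotated start. The windows of Clock, Npas2 and Dbp held none of these letters, which says only that these strings are not in that stretch. A match is a description of the letters and not a bound site.

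Total counts per library lay between 30478997 and 39992605. Ffar2, the deleted gene, had 34.5 ± 2.77 CPM (read counts relative to the total of a library, scaled between libraries by TMM, mean ± SD, n = 3) in FFA2 fl/fl libraries and 1.69 ± 0.634 (n = 4) in Adipoq-F2-KO, a log2 fold change of -4.36 (adjusted p = 7.97e-06). Log2 fold changes are Adipoq-F2-KO against FFA2 fl/fl throughout, and adjusted p-values are from edgeR's quasi-likelihood test with Benjamini-Hochberg adjustment over all tested genes, called under 0.05. The genotypes compared are separate mice, but in bulk RNA fewer cells of a type and less RNA per cell cannot be told apart.

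Per2, which encodes a repressor of the loop, was the single clock gene that passed the test, and its mean in Adipoq-F2-KO was 66.7% of that in FFA2 fl/fl. Transcripts of Per1, Per3 and the output gene Dbp had lower means in Adipoq-F2-KO as well, while those of the activators Clock, Arntl and Npas2 and of Nr1d1 had higher means, all short of the threshold. Cry1 and Cry2 had log2 fold changes near 0. The 10 genes thus divided into 5 with a higher and 5 with a lower mean. By edgeR, 1 was called lower, where 0.217% of all tested genes were, and 0 were called higher, where 0.798% of all were, with 1.02% called in either direction. At an unadjusted p under 0.05 there were 7 of the 10, with 3 higher and 4 lower, against 17.9% of all tested genes. DESeq2 called 3 of the 10, Per2 and Dbp lower and Clock higher, against 5.82% of all tested genes, and limma voom called Per2 alone. The median size of the log2 fold change without its sign was 0.36 over the 10 genes and 0.23 over all tested genes, and the signed median was 0.07 over the 10 and 0.00 over all.

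The genotypes did not overlap for 4 of the 10 genes. For Clock and Nr1d1, each Adipoq-F2-KO library lay above all FFA2 fl/fl libraries, where 8.86% of all tested genes did so. For Per2 and Dbp each lay below, where 8.72% did. The other genes overlapped.

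**Figure D1:**
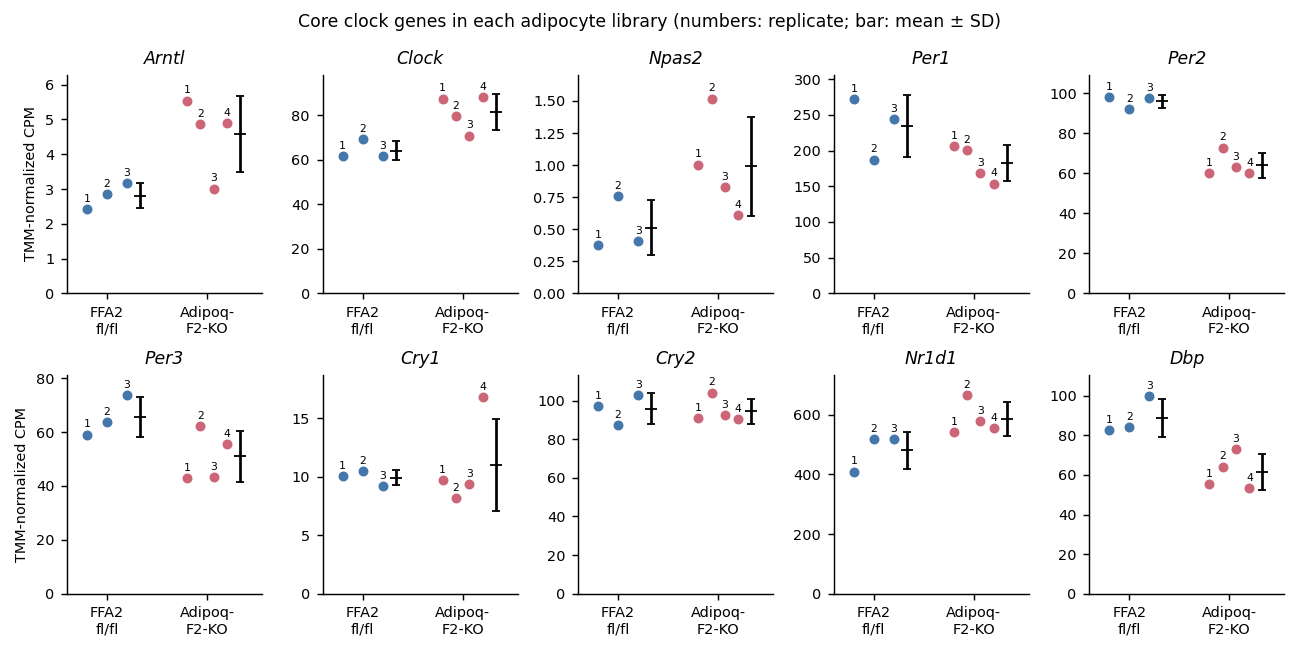
TMM-normalized CPM of the 10 clock genes in each library, with a panel for each gene, points numbered by replicate, and bars for the mean ± SD over 3 libraries of FFA2 fl/fl mice or 4 of Adipoq-F2-KO mice. Every Adipoq-F2-KO point lies below every FFA2 fl/fl point for Per2 and Dbp and above for Clock and Nr1d1, and the other panels overlap.

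Levels of different genes were compared per kilobase of exon. In FFA2 fl/fl adipocytes, Nr1d1 was the most abundant of the 10 at 157 CPM per kilobase. Per1 followed at 41.6 and Dbp at 29.7, then Per2 at 16.4 and Cry2 at 15.1, then Per3 at 6.82, Clock at 4.67 and Cry1 at 2.97. Arntl at 0.374 and Npas2 at 0.107 were at the bottom, so the mRNA of BMAL1 stood far below that of its partner Clock on this scale. The ranges of Per1 and Dbp overlapped, as did those of Per2 and Cry2, and the other neighbours did not overlap. In Adipoq-F2-KO the order ran Nr1d1 at 190, Per1 at 32.4, Dbp at 20.6, Cry2 at 14.9, Per2 at 10.9, Clock at 5.93, Per3 at 5.31, Cry1 at 3.30, Arntl at 0.608 and Npas2 at 0.207. Per2 thus stood below Cry2, and Clock above Per3, although the ranges of Clock and Per3 overlapped and so did those of Per3 and Cry1.

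**Figure D2:**
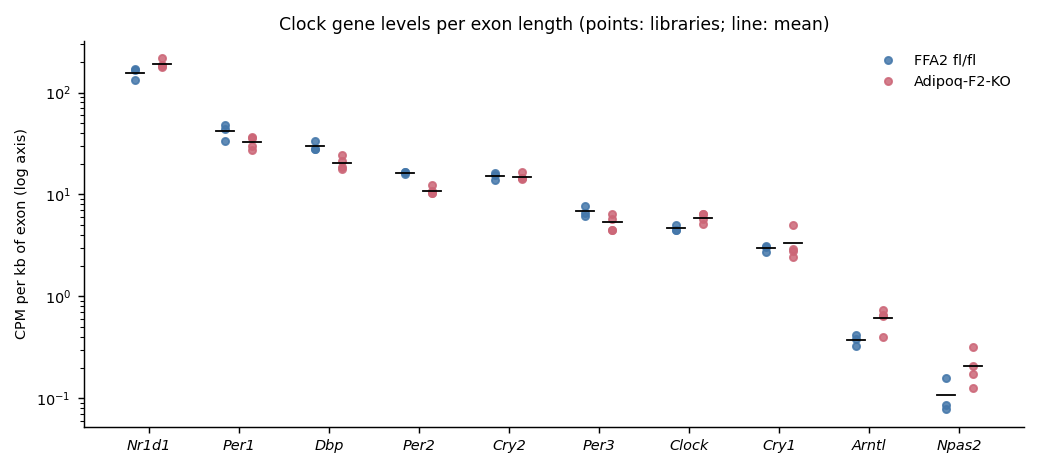
Level of each clock gene in CPM per kilobase of exon on a log axis, with points for single libraries, a line for the mean and a colour for each genotype. Nr1d1 is the highest of the 10 in both genotypes, at means of 157 and 190, and Arntl and Npas2 are the lowest.

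Among the activators, Clock (ENSMUSG00000029238, chromosome 5, 76357715 to 76452639, minus strand, in the coordinates of the deposited table) was the best measured. Its CPM were 61.6, 69.2 and 61.5 in FFA2 fl/fl libraries and 87.4, 79.5, 70.8 and 87.9 in Adipoq-F2-KO. The lowest Adipoq-F2-KO library, replicate 3, was close to the highest FFA2 fl/fl library, replicate 2, and the groups did not overlap. Its log2 fold change was 0.35 (SE 0.10, 95% interval 0.12 to 0.57, adjusted p = 0.120). DESeq2 gave an adjusted p of 0.0364, so the call for Clock depends on the tool.

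Arntl (ENSMUSG00000055116, chromosome 7, 112806672 to 112913333, plus strand) encodes the obligate partner BMAL1. It was measured at 2.43, 2.85 and 3.16 CPM in FFA2 fl/fl libraries and at 5.54, 4.86, 3.01 and 4.88 in Adipoq-F2-KO. All Adipoq-F2-KO libraries but replicate 3 were above the FFA2 fl/fl range, and replicate 3 lay inside it. The log2 fold change of 0.70 (SE 0.26, 95% interval 0.13 to 1.27) had an adjusted p of 0.191. These values rest on 91 to 221 counts per library, and both mates of a read pair were counted, so the number of fragments is lower still.

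Npas2 (ENSMUSG00000026077, chromosome 1, 39232812 to 39402317, plus strand), which can take the place of Clock, was barely present. It had 0.374, 0.756 and 0.410 CPM in FFA2 fl/fl libraries and 1.00, 1.52, 0.830 and 0.611 in Adipoq-F2-KO, from 14 to 50 counts a library. Replicate 4 of Adipoq-F2-KO was below replicate 2 of FFA2 fl/fl, so the groups overlapped. The log2 fold change of 0.94 had an interval from -0.30 to 2.18 (adjusted p = 0.412), and a difference was not detectable with these counts and this number of mice. All 3 activators had positive log2 fold changes, with a median of 0.70.

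Per2 (ENSMUSG00000055866, chromosome 1, 91343704 to 91387046, minus strand) carried the clearest difference among the repressors. FFA2 fl/fl libraries had 98.1, 92.0 and 97.4 CPM, from 3324 to 3672 counts. Adipoq-F2-KO libraries had 59.9, 72.8, 62.9 and 60.0 CPM, from 1768 to 2397 counts. The FFA2 fl/fl libraries lay close together, and even the highest Adipoq-F2-KO library, replicate 2, was well below them. Per2 fell by 0.58 on the log2 scale (SE 0.09, 95% interval -0.79 to -0.38, adjusted p = 0.0332). With 1 library left out the log2 fold change stayed between -0.65 and -0.55. The adjusted p passed 0.05 without FFA2 fl/fl replicate 1 (0.196), replicate 2 (0.0599) or replicate 3 (0.135) and without Adipoq-F2-KO replicate 3 (0.0546), in fits that call between 1 and 41 genes in all for these 4 settings against 173 with every library.

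Per1 (ENSMUSG00000020893, chromosome 11, 68986043 to 69000786, plus strand), the Per gene most readily induced by hormones and light, was the most abundant of the Per genes. It had 272, 187 and 245 CPM in FFA2 fl/fl libraries and 206, 201, 169 and 154 in Adipoq-F2-KO. Replicate 2 of FFA2 fl/fl lay within the Adipoq-F2-KO range, and the other FFA2 fl/fl libraries were above it. For Per1 the log2 fold change was -0.36 (SE 0.14, 95% interval -0.67 to -0.06, adjusted p = 0.206).

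Per3 (ENSMUSG00000028957, chromosome 4, 151088109 to 151129122, minus strand), whose promoter window holds a pair of D-box matches, had 59.0, 63.8 and 73.6 CPM in FFA2 fl/fl libraries and 43.0, 62.3, 43.4 and 55.5 in Adipoq-F2-KO. Only replicate 2 of Adipoq-F2-KO reached the FFA2 fl/fl range. The log2 fold change was -0.36 (SE 0.14, 95% interval -0.67 to -0.05, adjusted p = 0.216). Per1 and Per3 were called only when every gene with at least 1 count was kept. That same library, replicate 2, was also the highest Adipoq-F2-KO library for Per2, Cry2 and Nr1d1.

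The cryptochromes, the partners of the PER proteins in repression, showed no shared direction. Cry1 (ENSMUSG00000020038, chromosome 10, 84967564 to 85020928, minus strand) had 10.1, 10.5 and 9.20 CPM in FFA2 fl/fl libraries and 9.73, 8.20, 9.35 and 16.9 in Adipoq-F2-KO. Replicate 4 alone stood above the other libraries of both genotypes. With that library the log2 fold change was 0.15 (95% interval -0.35 to 0.65, adjusted p = 0.772), and without it -0.12. Cry2 (ENSMUSG00000068742, chromosome 2, 92233991 to 92264388, minus strand) had 97.1, 87.1 and 103 CPM in FFA2 fl/fl libraries and 90.9, 104, 92.4 and 90.2 in Adipoq-F2-KO. The ranges of Cry2 nearly coincided, and its log2 fold change was -0.02 (95% interval -0.23 to 0.19, adjusted p = 0.939).

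Nr1d1 (ENSMUSG00000020889, chromosome 11, 98658758 to 98666159, minus strand) had 410, 518 and 518 CPM in FFA2 fl/fl libraries and 542, 667, 579 and 557 in Adipoq-F2-KO. The groups did not overlap, although the lowest Adipoq-F2-KO library, replicate 1, was close to FFA2 fl/fl replicates 2 and 3. For Nr1d1 the log2 fold change was 0.28 (SE 0.11, 95% interval 0.03 to 0.53, adjusted p = 0.228). Nr1d1 is both a repressor of Arntl and a target of BMAL1, and its mean was higher in Adipoq-F2-KO together with that of Arntl.

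Dbp (ENSMUSG00000059824, chromosome 7, 45354512 to 45359627, plus strand), a PAR bZIP output factor, had 82.6, 84.3 and 100.1 CPM in FFA2 fl/fl libraries and 55.5, 64.2, 72.9 and 53.5 in Adipoq-F2-KO. Every Adipoq-F2-KO library was below every FFA2 fl/fl library, and the Adipoq-F2-KO mean was 69.1% of the FFA2 fl/fl mean. The log2 fold change was -0.53 (SE 0.12, 95% interval -0.80 to -0.27) with an adjusted p of 0.0614 from edgeR and 0.00452 from DESeq2. Of the 2993 exon bases of Dbp, 539 are shared with Sphk2, and of the 3077 of Nr1d1, 263 are shared with Thra on the opposite strand, and it is not stated whether counting used strand. The neighbours had log2 fold changes of -0.07 for Sphk2 (adjusted p = 0.791) and 0.01 for Thra (adjusted p = 0.985).

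**Figure D3:**
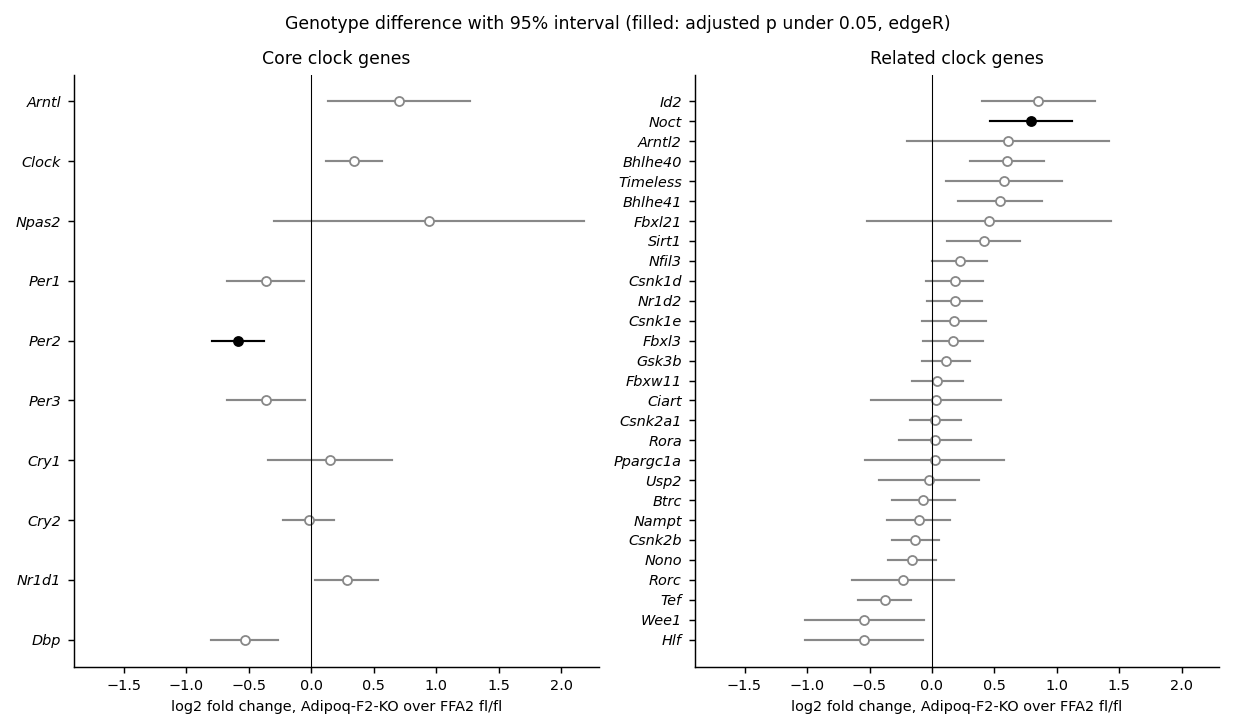
Log2 fold change of Adipoq-F2-KO against FFA2 fl/fl from edgeR, for the 10 core clock genes on the left and the 28 tested related clock genes on the right, with bars for the 95% interval, a vertical line at 0 and filled points for adjusted p under 0.05. Per2 at -0.58 and Dbp at -0.53 have intervals furthest below 0, Clock, Arntl and Nr1d1 have intervals above 0, and those of Npas2, Cry1 and Cry2 cross it, while Noct at 0.79 is the filled point on the right.

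The question of opposite moves of the arms was put to each library. For each gene the log2 level was set against the mean of all libraries, and these deviations were averaged over the arm. For Arntl, Clock and Npas2 the averages were -0.59, -0.12 and -0.42 in FFA2 fl/fl libraries and 0.45, 0.54, -0.03 and 0.16 in Adipoq-F2-KO. For Per1, Per2, Per3, Cry1, Cry2 and Nr1d1 they were 0.08, 0.03 and 0.16 in FFA2 fl/fl libraries and -0.14, 0.03, -0.16 and -0.01 in Adipoq-F2-KO. The activator averages of the genotypes did not overlap, with Adipoq-F2-KO higher. Their closest values were -0.12 in FFA2 fl/fl replicate 2 and -0.03 in Adipoq-F2-KO replicate 3. Arntl and Npas2, with few counts, had the same weight as Clock, and of these genes only Clock did not overlap by itself. The repressor averages were hardly apart, since those of replicate 2 of each genotype came to the same rounded value. Within the negative arm, 4 of 6 genes had negative log2 fold changes, and Nr1d1 and Cry1 had positive ones.

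Among the genes known to share E-box drive, Per2 and Dbp had lower levels and Nr1d1 higher levels in Adipoq-F2-KO, but of these only Per2 passed the edgeR test, and a difference in direction between them was not tested. Ratios within a library are given as a description. They were chosen after the values were seen, and those of Per2 or Dbp to Nr1d1 or Clock had to separate the genotypes, since each of these genes already did. The ratio of Per2 to Nr1d1 was 0.239, 0.178 and 0.188 in FFA2 fl/fl libraries and 0.111, 0.109, 0.109 and 0.108 in Adipoq-F2-KO. That of Dbp to Nr1d1 was 0.202, 0.163 and 0.193 in FFA2 fl/fl libraries and 0.103, 0.0963, 0.126 and 0.0960 in Adipoq-F2-KO. Per2 to Clock was 1.59, 1.33 and 1.58 in FFA2 fl/fl libraries and 0.685, 0.916, 0.889 and 0.682 in Adipoq-F2-KO. Arntl to Per2 lay between 0.0248 and 0.0325 in FFA2 fl/fl libraries and between 0.0479 and 0.0925 in Adipoq-F2-KO. The ratio of Per1 to Per2 overlapped, at 2.04 to 2.77 in FFA2 fl/fl libraries and 2.56 to 3.44 in Adipoq-F2-KO.

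**Figure D4:**
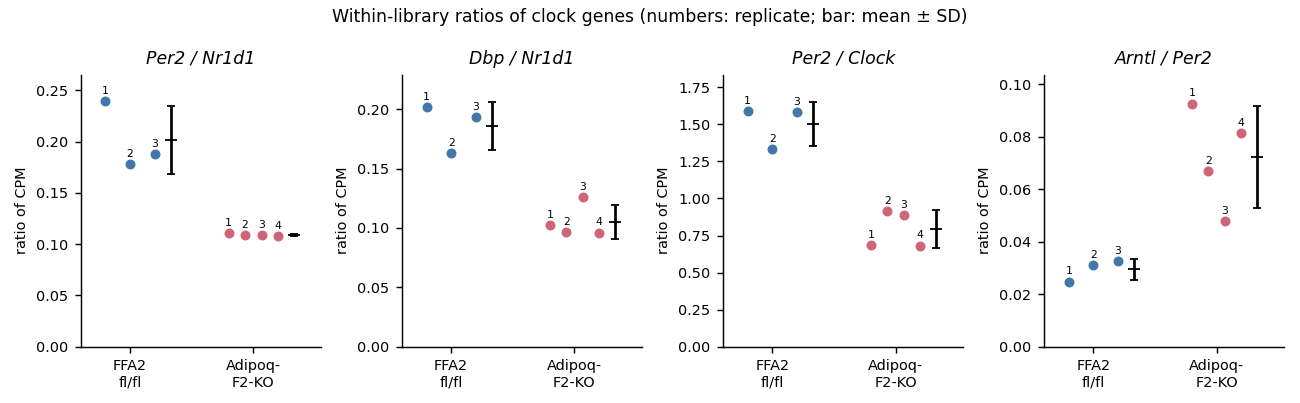
Ratios of TMM-normalized CPM between clock genes within each library, with a panel for each ratio, points numbered by replicate and bars for the mean ± SD of each genotype. Per2 to Nr1d1 averages 0.202 in FFA2 fl/fl libraries and 0.109 in Adipoq-F2-KO, and Dbp to Nr1d1 averages 0.186 and 0.105.

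Of 29 further genes of the clock, 28 were tested and Rorb had 0 counts. Their log2 fold changes were positive for 19 and negative for 9, with a median of 0.08. By edgeR the 1 gene called was Noct, a rhythmic deadenylase-related phosphatase, which rose from 182 ± 33.4 CPM to 316 ± 50.8 (log2 fold change 0.79, adjusted p = 0.0407). Its adjusted p lay between 0.0266 and 0.207 with a library left out and stayed under 0.05 without Adipoq-F2-KO replicate 1 or replicate 4 alone, and the log2 fold change lay between 0.67 and 0.94. No gene was called lower by edgeR (0 of 28), with 3 lower and 7 higher at an unadjusted p under 0.05. The genotypes did not overlap for 8 higher and 3 lower genes of the 28. Over all tested genes the shares were 1.02% called, 17.9% at an unadjusted p under 0.05 (1792 higher and 1255 lower of 17039), and 8.86% higher and 8.72% lower without overlap. Bhlhe40, which competes for E-boxes, had 98.0 ± 14.0 CPM in FFA2 fl/fl libraries and 149 ± 22.4 in Adipoq-F2-KO (log2 fold change 0.60, adjusted p = 0.0577). The PAR bZIP relatives of Dbp had lower means, with Tef at 186 ± 14.1 and 143 ± 12.6 CPM (log2 fold change -0.38, adjusted p = 0.0835) and Hlf at 19.1 ± 3.89 and 13.1 ± 3.96 (log2 fold change -0.55, adjusted p = 0.218). Nfil3, the repressor at the same D-boxes, had a log2 fold change of 0.22 (adjusted p = 0.276), and Nr1d2, the paralog of Nr1d1, one of 0.18 (adjusted p = 0.370). Ciart, another repressor of the BMAL1 pair, differed little, at 0.03 on the log2 scale (adjusted p = 0.967). Tef, like Dbp, was lower without overlap, and Nfil3 and Bhlhe40 were higher without overlap. DESeq2 called 5 of the 28, against 5.82% of all tested genes. Higher were Bhlhe40 (adjusted p = 0.00152), Bhlhe41 (0.0369), Id2 (0.00556) and Noct (3.66e-05), and lower was Tef (0.0115). With limma voom, Noct and Bhlhe40 were called. Id2 had the largest log2 fold change of the list, 0.85 (edgeR adjusted p = 0.0737).

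Per1 and Per2 also respond to glucocorticoids and to cAMP, so genes of these responses were set beside them. Of 14 glucocorticoid response genes, 9 had positive and 5 negative log2 fold changes, with a median of 0.22. By edgeR 2 were called higher, where 0.798% of all tested genes were, and 0 lower, where 0.217% were. At an unadjusted p under 0.05, 6 were higher and 4 lower, against 17.9% of all in either direction. The genotypes did not overlap for 3 higher and 3 lower genes, where 8.86% and 8.72% of all did so. The 3 lower ones were Tsc22d3, Zbtb16 and Pdk4. DESeq2 called Tsc22d3 (adjusted p = 0.0211) and Zbtb16 (adjusted p = 0.0163) lower and Errfi1 and Lcn2 higher. Errfi1, a feedback inhibitor of EGF receptor signaling, rose by a log2 fold change of 0.90 (adjusted p = 0.0332), and Lcn2, an acute-phase lipocalin, by 1.26 (adjusted p = 0.0332). Both calls, too, were kept without Adipoq-F2-KO replicate 1 or 4 and lost without any other library, with log2 fold changes of at least 0.78 and 1.15. Fkbp5, a co-chaperone of the receptor, had 172, 87.9 and 195 CPM in FFA2 fl/fl libraries and 109, 95.8, 92.9 and 72.3 in Adipoq-F2-KO (log2 fold change -0.71, adjusted p = 0.143), and Tsc22d3, which encodes GILZ, had 197, 141 and 167 against 135, 108, 135 and 96.4 (log2 fold change -0.51, adjusted p = 0.111). FFA2 fl/fl replicate 2, the lowest control library for Per1, was the lowest control for 7 of the 14 genes and the highest for 3. Klf9 had a log2 fold change of 0.21 (adjusted p = 0.432).

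Of 20 cAMP and immediate early genes, 14 had positive and 6 negative log2 fold changes, with a median of 0.22. Of all 17039 tested genes, 8596 had positive ones. None was called by edgeR (0 of 20), where 1.02% of all tested genes were. At an unadjusted p under 0.05, 7 were higher and 0 lower, against 1792 higher and 1255 lower of all 17039. Crem, an inducible cAMP responder, had 13.0 CPM in FFA2 fl/fl libraries and 23.9 in Adipoq-F2-KO (log2 fold change 0.87, adjusted p = 0.0776). Nr4a1 had a log2 fold change of 0.24 (adjusted p = 0.261) and Fos one of -0.09 (adjusted p = 0.761). The genotypes did not overlap for 5 higher and 0 lower genes, where 8.86% and 8.72% of all did so. Nr4a3 had the largest log2 fold change of the list, 1.13 (adjusted p = 0.0959). DESeq2 called Crem (adjusted p = 0.00394), Fosl2 (adjusted p = 0.0163) and Nr4a2 (adjusted p = 0.0385) higher, against 5.82% of all tested genes. Per1 and Per2 had lower means, while 14 of the 20 genes of this list had positive log2 fold changes. The part of either response in the clock values was not tested.

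**Figure D5:**
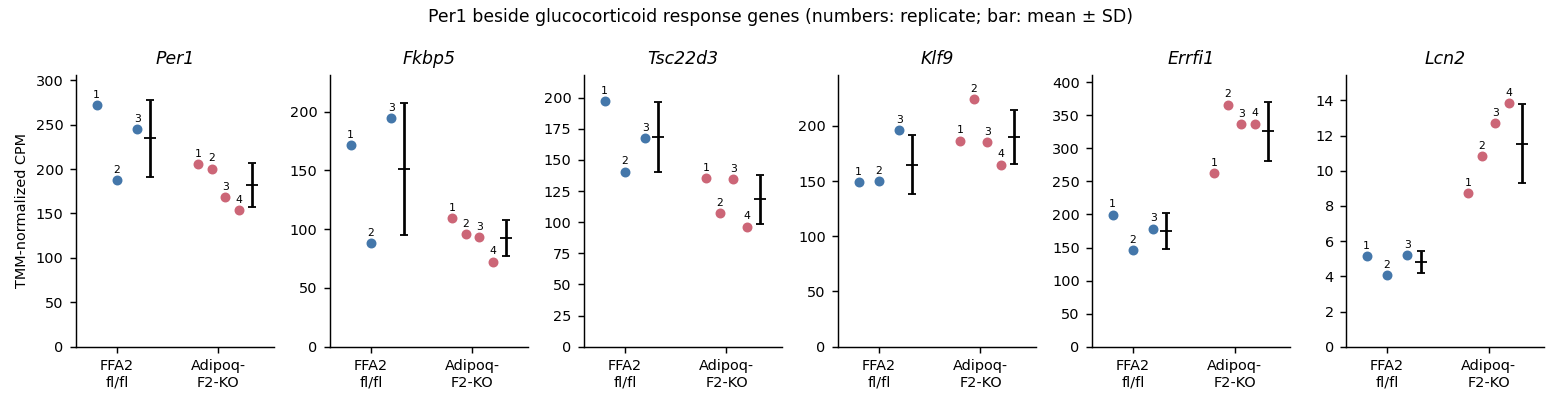
TMM-normalized CPM of Per1 and of the glucocorticoid response genes Fkbp5, Tsc22d3, Klf9, Errfi1 and Lcn2 in each library, with points numbered by replicate and bars for the mean ± SD of each genotype. Per1, Fkbp5 and Tsc22d3 have lower means in Adipoq-F2-KO, for Tsc22d3 without overlap. Errfi1 and Lcn2 are higher there without overlap, and Klf9 overlaps.

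Markers of other cells mostly had higher means in Adipoq-F2-KO. All 10 macrophage markers had positive log2 fold changes, 2 of them called (Cd68 and Lyz2, where 0.798% of all tested genes were called higher). With a library left out, Cd68 kept its call in 1 of 7 fits and Lyz2 in 3. The summed level of the 10 was 273 to 339 CPM in FFA2 fl/fl libraries and 439 to 521 in Adipoq-F2-KO. The 6 endothelial markers were also all positive, with sums of 689 to 967 and 954 to 1699 CPM, and 5 of 6 fibroblast progenitor markers were positive, with sums of 378 to 441 and 394 to 645. Of 10 adipocyte markers 9 were negative, with sums of 31383 to 33006 CPM in FFA2 fl/fl libraries and 22171 to 32186 in Adipoq-F2-KO. The adipocyte sum was far above those of the other lists in every library. The lists differ in their genes and in size, so the sums do not measure the share of a cell type. Neutrophil markers summed to 2.52 to 3.63 and 2.16 to 4.84 CPM, with Cxcr2 at 0 in 5 libraries, and mesothelial markers to 6.65 to 23.6 and 5.48 to 8.62, with Msln at 0 in 2. Replicate 3 of Adipoq-F2-KO had an adipocyte marker sum of 32186 CPM, inside the FFA2 fl/fl range, with macrophage markers at 462 CPM, above every FFA2 fl/fl library. Fabp4 made up 13485 CPM of that adipocyte sum, the highest Fabp4 level of the 7 libraries. In the same library Plin1, Lep, Cidec, Lipe, Adrb3 and Pck1 were below every FFA2 fl/fl library. Adipoq and Retn were inside the FFA2 fl/fl range and Pparg was above it. In that library Per2 at 62.9 and Dbp at 72.9 CPM were below the lowest FFA2 fl/fl library, and Arntl at 3.01 CPM was inside the FFA2 fl/fl range. The share of counts from mitochondrial genes also separated the genotypes, at 4.41%, 5.77% and 4.98% in FFA2 fl/fl libraries and 7.82%, 6.61%, 9.24% and 10.3% in Adipoq-F2-KO. With mitochondrial genes and ENSMUSG00000119584, an abundant identifier with no symbol, left out of the library sizes and the fit, the log2 fold change of Per2 was -0.58 (adjusted p = 0.0327). The part of cell composition, and of what the mitochondrial share reflects, in the clock values was not tested.

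Likeness within a genotype was also described. After each genotype mean was subtracted, Clock and Arntl correlated at r = 0.77 over the 7 libraries, and Clock and Dbp at -0.85. These were the values furthest from 0 among the clock genes paired with Arntl or Dbp. The others with Arntl lay between -0.51 (Dbp) and 0.44 (Per3), with Per2 at -0.05 and Nr1d1 at 0.22. The others with Dbp lay between -0.63 (Cry1) and 0.49 (Nr1d1), with Per1 at 0.08 and Per2 at 0.43. Among the 10226 genes whose mean reached 5 CPM, the ones most like Arntl were Kif13a (r = 0.993), Smim4 (0.989) and Cul7 (0.988), and those most like Dbp were Pgrmc1 (0.985), Ube2q2 (0.980) and Dpyd (0.978). For Clock, 96.3% of these genes had a lower r with Arntl. With 7 libraries and so many genes, such values are descriptions only.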

How the data were processed

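The 7 libraries, 3 of FFA2 fl/fl and 4 of Adipoq-F2-KO, were grouped by the genotype in the labels. The submitters' processing notes name Trimmomatic, STAR and featureCounts, and the authors deposited raw counts per gene. Versions, strand and overlap options are not given in the sources used here. Both mates were counted, since even numbers made up 85.5% to 88.8% of the counts between 1 and 49, and 0 counts allow up to 0.150 to 0.197 CPM (6 counts, or 3 fragments, counting error only). The notes name GRCm38, but 1423 of 52029 identifiers shared with that annotation had the same chromosome and start, so coordinates are as deposited and RefSeq on GRCm38.p6 gave promoter sequences alone.

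Counts were tested with edgeR 4.0.16 in R 4.3.3 (filterByExpr, TMM, glmQLFit and glmQLFTest, two-sided, genotype as the only term). The SE is the log2 fold change over the root of F, and intervals are 95%. The common biological coefficient of variation was 0.258. Scripts were tested on simulated data. DESeq2 1.42.0 and limma 3.58.1 were alternatives, with other scalings, filters, left-out libraries and the replicate number as a block. The study also used DESeq2, in a version not given in the sources used here. TMM factors lay between 0.968 and 1.02. Mitochondrial genes took 4.41% to 5.77% of FFA2 fl/fl and 6.61% to 10.3% of Adipoq-F2-KO libraries, and ENSMUSG00000119584, which has no symbol, 0.619% to 6.76%. Libraries of a genotype differed by more than counting noise (chi-square over its degrees of freedom 41.5 to 165).

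The 10 clock genes and the other lists were chosen with earlier results of these data known. All 10 are named with every library. From each other list, called genes and up to 6 preset genes are named, with some others where a count or a sum is described. Genes most like Arntl or Dbp are the 3 with the highest r of log2 CPM (prior count 2).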

Additional observations from a re-analysis of the deposited data

Results flagged for a closer look

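Cry2 in Adipoq-F2-KO was the single clock value picked out among 25 groups of 4 libraries examined for a library far from its group. Replicate 2 had 104 CPM, and its gap to the nearest other library took 0.843 of the group's range, above Dixon's 95% critical value for 4 libraries. Chance picks out about 1 in 20 such groups. The other 3 Adipoq-F2-KO libraries had 90.9, 92.4 and 90.2 CPM, and FFA2 fl/fl replicate 3 reached 103.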

How the results depend on the processing

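Across the alternatives, log2 fold changes of clock genes kept direction and side of the threshold in 135 cases, gained a call in 6, lost it in 4 and turned direction in 5. The number of clock genes called was 1 in edgeR as reported, 3 with DESeq2, 4 with all genes of at least 1 count (Per1, Per2, Per3 and Dbp), 2 with the replicate block, and 0 to 1 with a library left out. Clock passed with DESeq2 (0.35), Per1 (-0.37) and Per3 (-0.36) with the lower filter, and Dbp with DESeq2 (-0.53), the lower filter (-0.53) and the replicate block (-0.47). Per2 ranged from -0.65 to -0.55 with a library left out and lost its call in 4 of 7 such fits. Cry1 ranged from -0.12 to 0.27, Cry2 from -0.085 to 0.048, Ciart from -0.14 to 0.15 and Fos from -0.22 to 0.042 with a library left out. Cry1 turned to -0.12 without Adipoq-F2-KO replicate 4 and -0.13 with the block, and Cry2 to 0.048 without FFA2 fl/fl replicate 3, 0.0015 without Adipoq-F2-KO replicate 4 and 0.0018 with the block. Other clock genes called numbered 1, against 5 with DESeq2, 2 with limma voom, 7 with the lower filter, 3 with the block and 0 to 2 with a library left out. Response genes called numbered 2, against 7 with DESeq2, 11 with the lower filter and 0 to 3 with a library left out. Ciart turned to -0.14 without FFA2 fl/fl replicate 1, -0.0008 and -0.13 without Adipoq-F2-KO replicates 3 and 4, and -0.12 with the block, and Fos to 0.042 without FFA2 fl/fl replicate 2. The cause was not tested. Over all tested genes, calls numbered 173, 1403 of 28515 with the lower filter, 224 with the block and 1 to 178 with a library left out. Same-numbered libraries correlated at 0.031, -0.024 and -0.020 in their deviations from the genotype means, so the numbers are not taken to pair the mice. Npas2 rests on 14 to 50 counts a library.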
